A study of Mus musculus with 6 samples.

Results

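Genes of the 2 sort-gate antigens, of the macrophage surface receptor F4/80 and of leukocyte integrins and their ligands were compared between microglia with little and with much stored lipid. The set was taken by gene symbol and holds 10 of the 15912 genes in the deposited table: Itgam, Ptprc, Adgre1, Itgax, Itgb2, Itgal, Itgb1, Itga4, Vcam1 and Icam1. All 10 passed the filter on low values. The cells were microglia from the hippocampus of male C57BL/6 mice aged 3 months, all treated with lipopolysaccharide (LPS), a bacterial cell wall component, at 1 mg/kg into the peritoneum over 4 days and perfused 24 h after the last dose. Each sample pooled the hippocampi of 2 mice, and about 10000 live CD11b+CD45lo cells were sorted. The dye BODIPY, which stains neutral lipid, separated a low and a high fraction, called BODIPY-low and BODIPY-high, with 3 RNA-seq libraries each. Libraries of mice given PBS were not analysed here.

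Integrins are pairs of an alpha and a beta chain that bind ligands on other cells or in the matrix once proteins inside the cell have switched them to an active shape. On leukocytes the beta2 chain (Itgb2) pairs with CD11a (Itgal), CD11b (Itgam) or CD11c (Itgax), and the pairs with CD11a and CD11b are receptors for ICAM-1 (Icam1). The beta1 chain (Itgb1) with the alpha4 chain (Itga4) forms VLA-4, a receptor for VCAM-1 (Vcam1). CD45 (Ptprc) is a phosphatase on all white blood cells that sets the activity of Src-family kinases, and its low surface level on microglia is the usual way to sort them from blood-derived macrophages. Both gate antigens were selected as proteins, and the libraries measure RNA.

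The alpha chains differed widely in level, so the promoter windows of the most abundant (Itgam), of its neighbour on chromosome 7 (Itgax) and of the lowest (Itga4) are shown, from RefSeq on GRCm38.p6, all on the plus strand, 250 bases up to the annotated start. Capitals mark GAGGAA or its reverse complement, a core bound by PU.1, the ETS factor of macrophages. The windows are chr7:128062390-128062639 for Itgam, chr7:128129300-128129549 for Itgax and chr2:79255176-79255425 for Itga4.
Itgam: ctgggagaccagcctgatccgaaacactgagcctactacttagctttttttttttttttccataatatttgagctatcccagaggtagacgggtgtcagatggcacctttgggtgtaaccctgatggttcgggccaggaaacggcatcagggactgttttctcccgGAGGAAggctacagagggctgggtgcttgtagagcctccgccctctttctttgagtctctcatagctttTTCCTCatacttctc
Itgax: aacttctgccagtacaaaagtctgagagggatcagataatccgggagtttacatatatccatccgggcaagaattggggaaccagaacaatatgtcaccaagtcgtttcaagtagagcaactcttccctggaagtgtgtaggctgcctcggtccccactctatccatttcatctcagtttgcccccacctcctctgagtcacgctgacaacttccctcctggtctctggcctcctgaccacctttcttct
Itga4: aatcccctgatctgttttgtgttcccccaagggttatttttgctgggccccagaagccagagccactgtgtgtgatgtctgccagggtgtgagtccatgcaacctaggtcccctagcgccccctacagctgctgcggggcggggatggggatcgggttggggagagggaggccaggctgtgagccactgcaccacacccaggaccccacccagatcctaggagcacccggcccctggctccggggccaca
The Itgam window held 2 matches, which begin 84 and 15 bases before the start, and the other 2 windows shown held none. Of the 7 windows of these genes 3 held a match, those of Itgam and Itgb1 and 1 of the Ptprc windows. Of 32851 promoter windows of the same length, 23.3% held a match on either strand. In all 4 motifs were searched, on both strands: the ETS core GGAAGT, which can overlap GAGGAA, was in 19.7% of all windows and in the Itgax and Ptprc windows, TATAAA in 12.4% and in a Ptprc window, and the NF-kB consensus in 3.9% and in none of the 7 windows of these genes. Sites that differ from the NF-kB consensus were not counted, so a window without a match, as for Icam1, can still hold one. RefSeq windows were matched for 6 of the 10 genes (Itgam, Ptprc, Itgax, Itgb1, Itga4 and Icam1). Itgam (128062640 to 128118491) and Itgax (128129547 to 128150657) lie 11055 bases apart, and Itgal (127296260 to 127335138) is on the same chromosome. These and the other coordinates are from GENCODE release M21 on the same build.

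Adgre1 and Vcam1 were higher in BODIPY-high microglia, and the 2 gate antigens were not called different. Of the 10 genes, 2 rose and 0 fell (limma, adjusted p under 0.05), against 2.03% of the 12767 genes tested that rose and 0.0235% that fell. At an unadjusted p under 0.05, 4 were higher (8.03% of all genes tested) and 0 lower (2.27%). At an adjusted p under 0.05, edgeR called 2 higher (222 among all genes tested) and DESeq2 3 (464), the latter adding Itga4. Both called 0 lower. In 4 genes (Adgre1, Vcam1, Itgax and Itga4) every BODIPY-high library lay above every BODIPY-low library, as in 10.4% of all genes tested. With the replicate number as a block these 4 were called higher (4.37% of all genes tested); edgeR with that block, an alternative added after seeing the data, called 3 of them and not Itgax. The median log2 difference was 0.27 over the 10 genes and -0.0043 over all genes tested. In these bulk libraries, fewer cells of a type and less RNA per cell cannot be told apart.

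**Figure D1:**
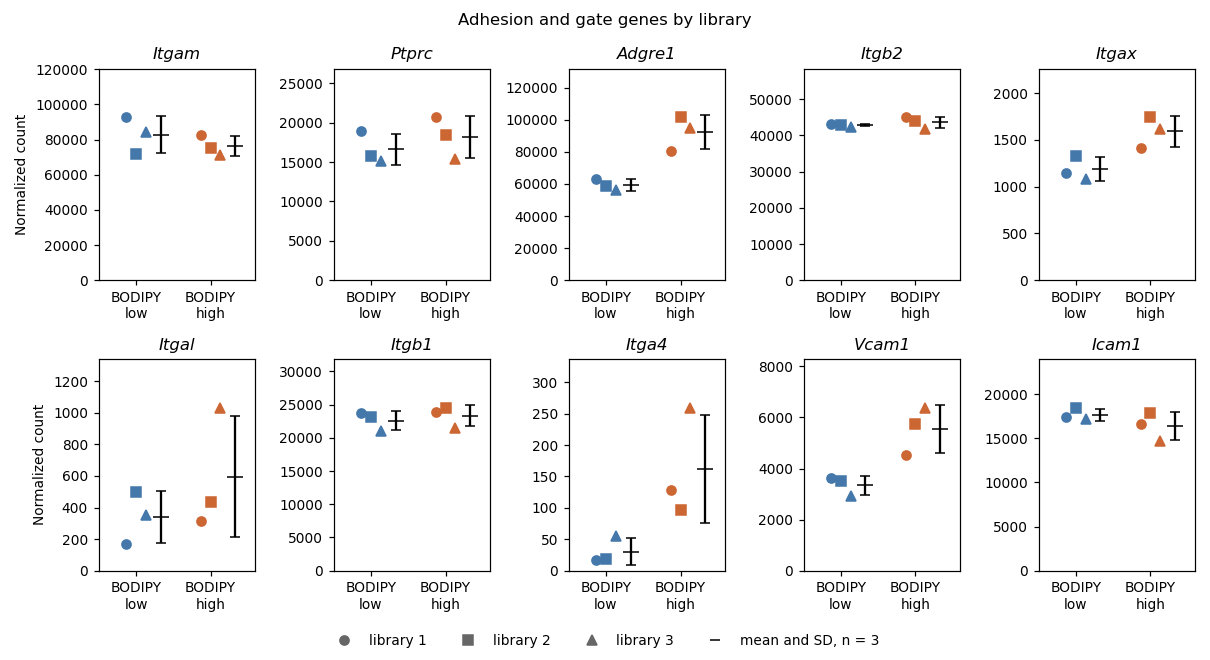
Normalized counts (y axis, from 0) of the 10 genes in each BODIPY-low and BODIPY-high library, with symbols for libraries 1 to 3 and the mean and SD beside them. The fractions do not overlap for Adgre1, Itgax, Itga4 and Vcam1, and they overlap for the other 6 genes.

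Libraries held 34899413 to 39220494 recovered reads. Genes of microglia were the most abundant of the marker lists, with a summed normalized count over 10 genes of 1780325 to 2159783 in BODIPY-low and 1269768 to 1889211 in BODIPY-high libraries. All 10 had a negative log2 difference, with a median of -0.26, and 0 of these passed the test (limma; 1 was lower and 0 higher at an unadjusted p under 0.05, and edgeR called 0 and DESeq2 1 lower). Of 12 border-associated macrophage markers 9 rose, and their sum was 17574 to 24502 in BODIPY-low and 43994, 48812 and 122302 in BODIPY-high libraries 1, 2 and 3. Lyve1, Colec12, F13a1 and Dab2 had the smallest p of these, and Stab1 was the most abundant. All 8 choroid plexus markers rose (sum 179 to 1568, then 29415 to 38801), as did 4 of 8 tested astrocyte markers (sum 10921 to 11909, then 12768 to 14595; without the most abundant, Slc1a3, 226 to 339, then 2158 to 3538). Among monocyte (8 tested), neutrophil (12), dendritic (6), T, NK and B cell (2 of 10 listed), endothelial (12), mural (3) and neuron markers (2), limma called 0 in either direction; at an unadjusted p under 0.05, 4, 3, 0, 0, 0, 1 and 1 were higher, edgeR called 0 and DESeq2 1 monocyte and 1 neutrophil gene. None of the border macrophage, monocyte, neutrophil, dendritic or choroid plexus markers in the table was at 0 in all BODIPY-low libraries. The part of these cells in the differences below was not tested.

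The CD11b gene Itgam (chromosome 7) was among the most abundant of the set. It had 92616, 71531 and 84189 normalized counts in BODIPY-low libraries 1, 2 and 3, and 82697, 75278 and 70987 in BODIPY-high libraries 1, 2 and 3. The ranges overlap, though BODIPY-low libraries 1 and 3 lay above every BODIPY-high library. Means were 82778 ± 10613 and 76321 ± 5924 (SD, n = 3 per fraction), and the log2 difference was -0.11 ± 0.13 (SE; limma adjusted p = 0.865). The 95% interval of the fold, high over low, ran from 0.757 to 1.13. In GENCODE the protein-coding gene Gm49368 (128062683 to 128128160) overlaps most of Itgam on the same strand. Gm49368 is absent from the deposited table, and how reads of the shared stretch were assigned is not given.

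The CD45 gene Ptprc (chromosome 1, 138062861 to 138175708, minus strand) had 18881, 15773 and 15135 normalized counts in BODIPY-low libraries and 20662, 18454 and 15408 in BODIPY-high libraries 1, 2 and 3. Within each number the BODIPY-high library was the higher, by ratios of 1.09, 1.17 and 1.02, while the fractions overlap. The log2 difference was 0.13 ± 0.13 (SE; limma adjusted p = 0.846, and 0.396 with the replicate block), with a 95% interval of the fold of 0.888 to 1.34. The gene-level values do not separate the splice forms of CD45.

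Adgre1 (chromosome 17, 57358691 to 57483527) encodes F4/80, an adhesion G protein-coupled receptor used as a marker of mature macrophages. It had 63091, 58828 and 55976 normalized counts in BODIPY-low libraries and 80602, 101490.4 and 94954 in BODIPY-high libraries 1, 2 and 3. The lowest BODIPY-high library stood well above the highest BODIPY-low library. The mean rose from 59298 ± 3581 to 92349 ± 10685 (SD, n = 3), a ratio of 1.56, with a log2 difference of 0.63 ± 0.12 (SE; limma adjusted p = 0.0339; 0.00401 with the replicate block; edgeR 0.0298; DESeq2 4.37e-06). The border macrophage sum was 17574 to 24502 in BODIPY-low and 43994 to 122302 in BODIPY-high libraries. The part of these cells in the Adgre1 values was not tested. The Adgre1 call held without BODIPY-high library 1 (adjusted p = 0.0392). It was lost without any other single library (0.0874 to 0.169), while the ratio stayed between 1.48 and 1.66.

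The 2 genes that rose differed in level from most called genes. The median BODIPY-low level of the 259 genes called higher was 5.95 normalized counts. A mean of at least 3000 in BODIPY-low, a limit chosen after the values were seen, was reached by 2144 tested genes, of which 3 were called higher: Adgre1, Vcam1 and the amyloid precursor-like gene Aplp2.

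**Figure D2:**
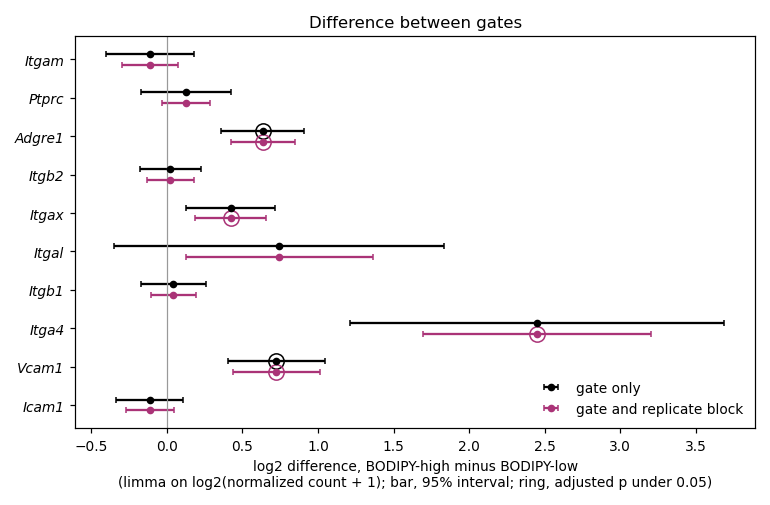
Log2 difference, BODIPY-high minus BODIPY-low, of each gene (x axis) with its 95% interval, from limma with the fraction as the only term (black) and with the replicate block (purple), and rings at an adjusted p under 0.05. Adgre1 (0.63) and Vcam1 (0.72) are ringed in both fits, and Itgax and Itga4 with the block only.

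Among the beta2 integrins the shared chain was flat. Itgb2 (chromosome 10, 77530252 to 77565708) had 43228, 42963 and 42475 normalized counts in BODIPY-low libraries and 44989, 43977 and 41894 in BODIPY-high libraries. All 6 values lie close together, with a log2 difference of 0.024 ± 0.089 (SE; limma adjusted p = 0.970) and a 95% interval of the fold of 0.884 to 1.17.

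The CD11c gene Itgax (chromosome 7), known from dendritic cells and from activated microglia, had 1152, 1329 and 1080.3 normalized counts in BODIPY-low libraries and 1414, 1741 and 1616 in BODIPY-high libraries 1, 2 and 3. The fractions do not overlap, though the gap between them is small. Means were 1187 ± 128 and 1590.4 ± 165 (SD, n = 3), a ratio of 1.34 and a log2 difference of 0.42 ± 0.13 (SE). The limma adjusted p was 0.222, and 0.0498 with the replicate block, which alone of 15 alternatives called the gene; edgeR with the same block gave 0.0605. Summed dendritic cell markers were 814 to 872 in BODIPY-low and 857 to 1264 in BODIPY-high libraries, and their part was not tested.

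The CD11a gene Itgal (chromosome 7), a lymphocyte and myeloid integrin chain, varied widely between libraries of a fraction. It had 171, 499 and 352 normalized counts in BODIPY-low libraries and 317, 434 and 1032 in BODIPY-high libraries 1, 2 and 3. The value of BODIPY-high library 3 stands apart, and the fractions overlap otherwise. The log2 difference was 0.74 ± 0.48 (SE; limma adjusted p = 0.704; 0.187 with the replicate block), and the ratio of means went from 1.74 to 1.10 without BODIPY-high library 3. The sum of 12 neutrophil markers was 89876, 197995 and 199386 in BODIPY-low and 106159, 139074 and 294255 in BODIPY-high libraries 1, 2 and 3, with the lowest value in BODIPY-low library 1 and the highest in BODIPY-high library 3, as for Itgal. Of that list 9 of 12 genes had their lowest and highest values in these libraries; Csf3r, at 33025 to 39300 normalized counts in the 6 libraries, Camp and Lcn2 did not. The monocyte sum was also highest in BODIPY-high library 3, at 32750 against 9964 to 24890.05 in the other libraries. Whether such cells had a part in the Itgal values was not tested.

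The alpha4 gene Itga4 (chromosome 2, 79255426 to 79333123) showed the largest difference of the set, from a very low level. It had 16, 18 and 52 recovered reads in BODIPY-low libraries and 129, 97 and 282 in BODIPY-high libraries 1, 2 and 3, or 17.6, 18.6, 54.8, 129, 96.7 and 259 normalized counts. The fractions do not overlap, and library 3 was the highest of each. Means were 30.3 ± 21.2 and 162 ± 86.1 (SD, n = 3), a ratio of 5.34, with a log2 difference of 2.45 ± 0.55 (SE; limma adjusted p = 0.0655). The gene passed with the replicate block (adjusted p = 0.00251; edgeR with the block 0.00269), with DESeq2 (0.0014) and without BODIPY-low library 3 (0.0259, ratio 8.96), and not with edgeR without the block (0.101). The border macrophage sum was likewise highest in library 3 of each fraction. Without its most abundant gene, Stab1, it was 3391, 2623 and 7655 in BODIPY-low and 23099, 30472 and 86138 in BODIPY-high libraries 1, 2 and 3, and 11 of the 12 markers were highest in library 3 among BODIPY-low and 12 among BODIPY-high libraries; their part in the Itga4 values was not tested. Cerkl, which overlaps the end of Itga4 on the opposite strand, was at 0 in all BODIPY-low libraries and at 4.004 to 15.6 normalized counts in BODIPY-high libraries. Nothing is given on the strand column used, so it is open whether reads of the shared stretch were told apart between these genes. Vcam1 and Icam1 are also overlapped by antisense genes (Gm43109 and Gm47079), and Ptprc on its own strand by A130071D04Rik. These overlapping genes are absent from the deposited table.

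**Figure D3:**
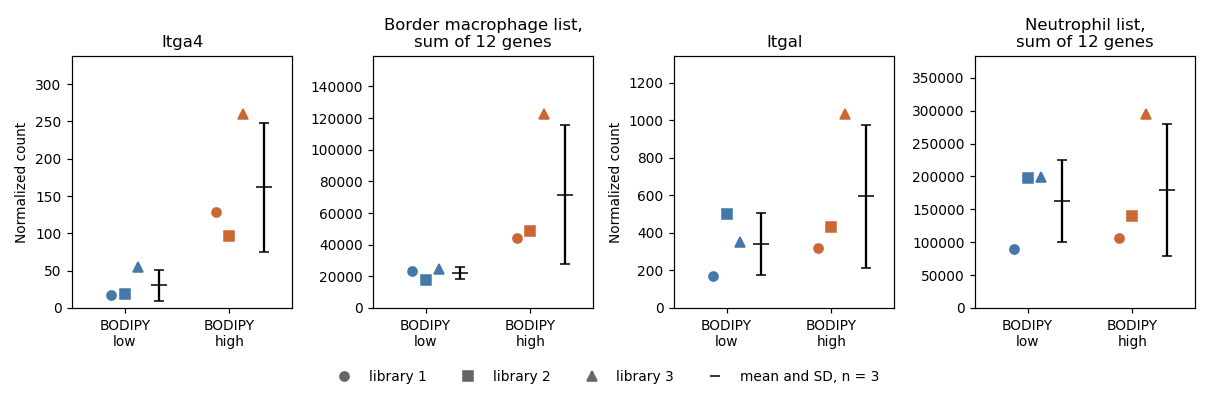
Normalized counts (y axes, from 0) of Itga4, of 12 border-associated macrophage markers summed, of Itgal and of 12 neutrophil markers summed, by library, with mean and SD (n = 3). BODIPY-high library 3 is the highest in all 4 panels, with 259, 122302, 1032 and 294255.

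The partner chain Itgb1 (chromosome 8, 128685654 to 128733200) did not follow Itga4. It had 23695, 23124 and 21011 normalized counts in BODIPY-low libraries and 23892, 24523 and 21513 in BODIPY-high libraries 1, 2 and 3. These values overlap, with a log2 difference of 0.044 ± 0.096 (SE; limma adjusted p = 0.938) and a 95% interval of the fold of 0.887 to 1.20. Beta1 also pairs with many other alpha chains.

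Of the ligand genes, Vcam1 was called higher and Icam1 was not called different. Vcam1 (chromosome 3, 116109949 to 116129688, minus strand), known from activated endothelium, had 3626, 3492 and 2910.3 normalized counts in BODIPY-low libraries and 4541, 5740.2 and 6378 in BODIPY-high libraries 1, 2 and 3. Every BODIPY-high library lay above every BODIPY-low library. The mean rose from 3343 ± 380.5 to 5553 ± 933 (SD, n = 3), a ratio of 1.66, with a log2 difference of 0.72 ± 0.14 (SE; limma adjusted p = 0.0393; 0.0111 with the replicate block; edgeR 0.0436; DESeq2 0.00014). Within numbers 1, 2 and 3 the ratio was 1.25, 1.64 and 2.19. The call held without BODIPY-high library 1 (adjusted p = 0.0287) and was lost without any other single library (0.0785 to 0.182) and with a minimum of 50 normalized counts (0.0522). The summed endothelial markers, of another cell type that carries Vcam1, were 2053 to 2970 in BODIPY-low and 1859 to 2663 in BODIPY-high libraries. The sums of border macrophage, astrocyte and choroid plexus markers were higher in BODIPY-high libraries. The part of any of these cell types in the Vcam1 values was not tested.

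Icam1 (chromosome 9, 21015985 to 21028817), a ligand of the beta2 integrins and a well-known NF-kB target, had 17414, 18467 and 17216 normalized counts in BODIPY-low libraries and 16622, 17896 and 14693 in BODIPY-high libraries 1, 2 and 3. Within each number the BODIPY-high library was the lower, and the fractions overlap. The log2 difference was -0.11 ± 0.098 (SE; limma adjusted p = 0.804), with a 95% interval of the fold of 0.792 to 1.08. Whether the Vcam1 and Icam1 differences differ from each other was not tested.

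Per length the order of the genes by their means was the same in both fractions. In normalized counts per kb of the principal transcript, a length preferred after values on the union of all exons had been seen, the BODIPY-low means were 18313 for Adgre1, 17806 for Itgam, 14441 for Itgb2, 6982 for Icam1, 5927 for Itgb1 and 3530 for Ptprc. They were 964 for Vcam1, 293 for Itgax, 65.6 for Itgal and 3.10 for Itga4. Neighbours in this order were separated in all BODIPY-low libraries except Adgre1 and Itgam, which overlapped. In BODIPY-high libraries Adgre1 stood clear of Itgam, at 28520.3 ± 3299.99 against 16416.5 ± 1274 (SD, n = 3), and only Icam1 and Itgb1 overlapped, a pair that changes places when the union of all exons is taken as the length. Of the summed level per kb of the 4 alpha chains of Itgb2 (Itgam, Itgax, Itgal and Itgad), Itgam made up 97.3 to 98.4% in BODIPY-low and 96.2 to 97.7% in BODIPY-high libraries. Itgax made up 1.41 to 2.08% and 1.92 to 2.58%, and these ranges overlap.

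**Figure D4:**
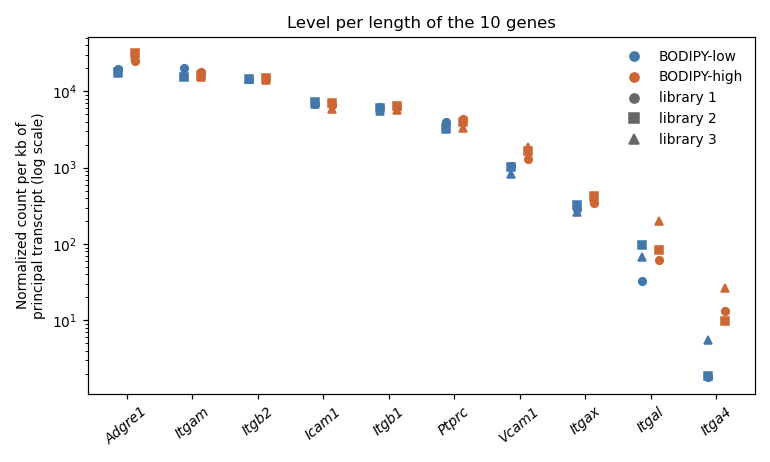
Normalized count per kb of principal transcript (y axis, log scale) of the 10 genes in each library, ordered by the BODIPY-low mean. Levels run from 18313 (Adgre1) to 3.10 (Itga4) in BODIPY-low, and BODIPY-high values of Adgre1 lie above those of all other genes shown.

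Other integrin chains did not pass the test. Of 20 listed, 10 were tested and limma called 0 (1 higher and 0 lower at an unadjusted p under 0.05; edgeR called 0 and DESeq2 1 higher), with a median log2 difference of -0.0034. The beta5 chain Itgb5, a partner of the alphaV chain Itgav, was the most abundant, at 214645 ± 20138 and 213399 ± 32159 normalized counts (SD, n = 3). The laminin receptor chain Itga3 had the smallest p: 7 reads in BODIPY-low and 99 in BODIPY-high libraries (limma adjusted p = 0.0734; 0.0274 with the replicate block; 0.0365 with a pseudocount of 10; edgeR 0.0956, and 0.0421 with the block; DESeq2 0.0152). Itgae (log2 difference -0.51, adjusted p = 0.660), a partner of Itgb7, and the laminin receptor chain Itga6 (-0.18, 0.665) followed. Itgb8 was not tested: it had 0 reads in BODIPY-low libraries and 0, 34.9 and 36.8 normalized counts in BODIPY-high libraries 1, 2 and 3.

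Genes that activate integrins or tie them to actin were mostly flat, and 2 of 30 tested rose: Parva and Bcar1. The list median was 0.00037, and 2.03% of all genes tested rose. Parva, the alpha-parvin that joins integrin-linked kinase to actin, had 5.49, 2.06 and 19.0 normalized counts in BODIPY-low and 94.1, 334 and 177 in BODIPY-high libraries (ratio 22.8; limma adjusted p = 0.0194). The docking protein gene Bcar1 (p130Cas) went from 9.98 ± 4.06 to 66.1 ± 18.3 (SD, n = 3; adjusted p = 0.0346). Both are low in BODIPY-low libraries. The Parva call held without BODIPY-low library 3, with a ratio of 53.4, or BODIPY-high library 1, and was lost on leaving out each of the other 4 (highest adjusted p = 0.125); Bcar1 was lost without any single library (up to 0.182). With the replicate block 4 members of the list rose, against 4.37% of all genes tested.

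Of 19 tested genes of other adhesion receptors and matrix ligands, 1 rose: vitronectin (Vtn), a matrix ligand of alphaV integrins, from 12.5 ± 5.44 to 80.4 ± 16.7 normalized counts (SD, n = 3; limma adjusted p = 0.0269). The list median was 0.13, and 2.03% of all genes tested rose. Vtn held without BODIPY-low library 1 and was lost without any other single library (adjusted p up to 0.175) and with a minimum of 50 normalized counts (0.0576). With the replicate block Vtn was also called higher (adjusted p = 0.0117), and the junction gene F11r was called lower.

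Among 13 tested adhesion G protein-coupled receptors and ligands, the family of Adgre1, 2 rose (2.03% of all genes tested) and the median was 0.059. Cd55, a complement regulator and ligand of the receptor CD97, had 28.5, 72.2 and 93.7 normalized counts in BODIPY-low and 550, 990 and 2568 in BODIPY-high libraries 1, 2 and 3 (limma adjusted p = 0.0117). Its ratio of means was 21.1, and 11.9 without BODIPY-high library 3; it was lost without BODIPY-high library 2 (adjusted p = 0.0747). Adgrg6 (GPR126), known for Schwann cell myelination, had 1 read in BODIPY-low and 131 in BODIPY-high libraries, a ratio of 120 with an exact 95% counting interval of 21.2 to 4777 (limma adjusted p = 0.0266). BODIPY-low library 3 held the single read, and no finite ratio can be formed when it is left out. The ratio of means of 118 was 66.9 without BODIPY-high library 3, and the call was lost without any single library other than BODIPY-low library 3 (up to 0.152) and with a pseudocount of 10 (0.0516, log2 difference 2.14 against 4.79). The replicate block added the CD97 gene Adgre5.

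Around CD45, 1 of 20 tested phosphatases, kinases and partners rose (2.03% of all genes tested), and the median was 0.064. The receptor phosphatase Ptprk had 28.5, 1.03 and 6.32 normalized counts in BODIPY-low and 142, 151 and 342 in BODIPY-high libraries (ratio 17.7; limma adjusted p = 0.0328; edgeR 0.0507). Its ratio was 57.6 without BODIPY-low library 1, and the call was lost without any other single library (up to 0.147). With the replicate block Ptprk, the galectin gene Lgals1 and the sialic acid receptor gene Cd22 were higher, and Pag1, the adaptor that brings Csk to Src-family kinases, lower.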

How the data were processed

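The authors' alignment used STAR 2.5.3a on mm10 after a FastQC 0.11.4 quality check, with gene counts from STAR and DESeq2 at standard settings, per the design text; mm9 is also among the builds in the submitters' processing notes. For the annotation and strand column nothing is given in the sources used here. What the authors deposited is a normalized signal per gene and library: gene counts over one size factor a library, as the values show. Every value was a whole multiple of 1 step per library within 0.05 of a read (100% of values), so reads were recovered. In BODIPY-high libraries 1 and 2 the step is so close to 1 that recovery is less certain there, and count tests serve as alternatives only. A count of 0 allows 3 reads, worth 2.76 to 3.29 normalized counts; intervals and floors cover counting error only. No 2 libraries agreed within sampling noise (chi-square per degree of freedom at least 30.6).

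The test was limma-trend (limma 3.58.1, R 4.3.3) applied two-sidedly to log2(normalized count + 1), fraction being the only term, for genes with at least 10 normalized counts in at least 3 of 6 libraries, and Benjamini-Hochberg adjustment over 12767 genes. Fold changes on this scale understate those of low genes. edgeR 4.0.16, without and with the replicate block, and DESeq2 1.42.0 were run on recovered reads; other alternatives were the block in limma, pseudocounts, filters, TMM scaling and leaving out each library. The script was tested on simulated data. Deviations from the fraction means correlated at 0.53, 0.40 and 0.51 between libraries of numbers 1, 2 and 3 across 10912 genes and at -0.12 or less between other numbers, so the numbers, given in the titles, were taken as pairs for the block. The labels do not say whether samples of a fraction came from separate pools, and p-values reflect only how far these samples spread.

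The members and lists were chosen with earlier results of these data known. Named genes were the 10 members, up to 6 called genes of each pathway list or else its 3 genes of smallest p, and up to 4 called genes and the most abundant of a marker list where one is named; others were chosen after their values were seen. A result that needs a withheld item is not reported here.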

Additional observations from a re-analysis of the deposited data

How the results depend on the processing

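With the replicate block 558 genes were higher and 59 lower in BODIPY-high libraries, against 259 and 3 without it; 261 of these 262 were also called with the block. edgeR with the replicate block, added after seeing the data, called 499 higher and 50 lower, and 3 members. DESeq2 called 464 higher and 32 lower, a minimum of 50 normalized counts gave 131 and 1, and edgeR without the block called 1 lower. Leaving out 1 library gave 15 to 271 genes higher and 0 to 2 lower. Of the 10 members, 4 were called higher with the replicate block, 3 with DESeq2 and 2 with edgeR without the block. A minimum of 50 normalized counts gave 1 member called higher, and leaving out 1 library gave 0 to 2. Pseudocounts of 0.5 and 10, TMM scaling and no filter on low values left the member count at 2. The log2 difference of Itgb1 lay between -0.0084 and 0.10 with 1 library left out, and its sign turned without BODIPY-low library 3; the cause was not tested. The other 9 members kept their direction in all 15 alternatives. The union of exons as the length, chosen after seeing the data, exchanged the ranks of Icam1 and Itgb1 in both fractions. Itga4 had 86 reads over the BODIPY-low libraries; its 95% counting interval of the ratio, 4.30 to 6.88, is narrower than the interval of the fold from the spread between libraries, 2.32 to 12.9.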

Other observations

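By log2 values over the 6 libraries, and among tested genes with a mean of at least 100 normalized counts, the genes most like Itga4 were Mapkbp1 (Pearson r = 0.995), the T cell and macrophage co-receptor gene Cd4 (0.992) and Pde4a (0.991). For Itgam they were Mylip, Spata13 and Nr3c1 (0.984 to 0.985), and for Ptprc Tbc1d7, Abcc3 and Tmem79 (0.986 to 0.989). With 6 libraries and 10054 or 10055 genes searched, such coefficients are a description only.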
